A study of Mus musculus with 15 samples.

Results

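Liver RNA of mice that received the drug MCOPPB was compared between animals given diethylnitrosamine and a high fat diet (DEN/HFD, 3 libraries) and animals kept on chow (5 libraries). These 8 libraries were chosen by their sample titles from the 15 of the series, each from the liver of 1 male C57BL6J mouse aged 9.5 months. The chow animals received vehicle in place of the carcinogen and stayed on standard food. The DEN/HFD animals received 25 mg/kg of diethylnitrosamine at 2 weeks of age and then a diet with 60% of its energy from lard fat for 32 weeks. All 8 received MCOPPB at 5 mg/kg in cycles of 5 daily injections and 2 days of washout, for 3 cycles and 21 days in all. The other 7 libraries, 3 chow and 4 DEN/HFD, came from mice injected with saline on the same schedule and give the diet contrast without the drug. Carcinogen and fat were always given together, so their effects cannot be told apart, and no sample was labelled as tumour or non-tumour tissue. In bulk liver RNA, fewer cells of a type and less RNA per cell cannot be told apart either.

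Diethylnitrosamine is turned into a DNA-damaging agent by hepatocyte cytochrome P450 enzymes and, given to young male mice, leads to liver tumours that a fatty diet promotes. MCOPPB is an agonist of the nociceptin/orphanin FQ receptor, encoded by Oprl1, and the study tested it as a senolytic, a drug that removes senescent cells. The liver is also one of the most sexually dimorphic organs of the mouse: pulsed growth hormone in males maintains genes such as the major urinary proteins and represses a female-biased set of cytochromes P450 and sulfotransferases. Many hepatic genes further follow the feeding cycle and the circadian clock, and the nuclear receptors CAR and PXR raise drug-metabolising enzymes.

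Depth was estimated at 9.32 to 18.7 M reads per library, and 13863 to 16675 genes lay above 0. Hepatocyte transcripts (Alb, Ttr, Apoa1, Serpina1a and Hnf4a) were high in all 15 libraries, and the pancreatic Prss2 was above 0 in 1 library and Cpa1 in 2. Of adipose markers, Adipoq was above 0 in 7 libraries and Lep in 4. Adipoq reached 147 in chow saline, 44.2 in chow MCOPPB, 2.27 in DEN/HFD MCOPPB and 0 in DEN/HFD saline livers. Retn was at 5.83 to 34.4 in chow saline livers and 0 elsewhere. The part of adipose tissue in the differences was not tested. Xist was at 0 in 13 of 15 libraries, and the Y-linked Ddx3y, Eif2s3y, Kdm5d and Uty were above 0 in all 15, as the label of male animals has it. Chow MCOPPB 4 and chow saline 2 lay farthest from their groups, and DEN/HFD saline 4 had chow-like levels of several genes that were high in the other DEN/HFD saline livers (for example Anxa2, at 108). The labels give 2 RNA integrity values per sample. The first was 9.9 to 10 in the chow MCOPPB group and 8.7 to 9.2 in the DEN/HFD MCOPPB group, so that it cannot be told apart from diet in these 8 libraries. The second was 8.9 to 9.6 and 9.1 to 9.6. Animal numbers in the titles and sample indices in the column names form separate blocks by diet, so neither can be told apart from diet. The labels name no batch or date, and whether same-group mice shared a cage or litter is not given. The p-values therefore rest only on the spread between animals, pooled within the 4 groups over all 15 libraries.

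Levels below are normalized counts, and differences are DEN/HFD minus chow on the deposited variance-stabilised log2 scale (the scale shrinks the differences of weakly expressed genes). Of 11568 genes tested with limma, 66 differed between DEN/HFD MCOPPB and chow MCOPPB livers at an adjusted p under 0.05, which is 0.571% of those tested. Of these, 26 were higher (0.225% of genes tested) and 40 lower (0.346%) in the DEN/HFD livers. The median difference of all tested genes was -0.01, with 5713 differences positive and 5855 negative. List counts given below are to be read beside these values over all genes tested. None of the 66 genes had overlapping groups, beside 1077 of all genes tested (9.31%) whose groups did not overlap. By list membership, 10 of the 66 belong to lists of sex-biased liver genes, 5 to targets of CAR and PXR and 4 to the circadian clock, with some genes on more than 1 list. Of the 11568 genes tested, 29 were on the female-biased, 36 on the male-biased, 32 on the CAR and PXR and 22 on the circadian list. A total of 27 of the 66 stood on any of the 41 gene lists used. These lists held 1345 entries found in the data, tested or not, with genes counted once per list.

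The 66 genes fell into several patterns when all 15 libraries were laid side by side. In 14 of the 40 genes that fell, the 5 chow MCOPPB livers lay above all 10 other libraries, a pattern that 31 of all genes tested (0.268%) had. These were Acot3, Ces1d, Cyp2b13, Cyp2b9, Cyp2c40, Cyp2c69, Fmo2, Lrtm1, Nampt, Slc22a26, Slco1a4, Sult2a7, Sult3a1 and Trim41. In another 14, among them Per3, Tef, Usp2, Upp2, Inmt and Igfbp2, the 3 DEN/HFD MCOPPB livers lay below all 12 others (80 of all genes, 0.692%). Only Nampt was in both sets. Of the 26 genes that rose, 12 had the DEN/HFD MCOPPB livers above all 12 others, including Atf5, Cp, Dio1, Insig2 and Mki67 (52 of all genes, 0.45%). In 6 (Atoh8, Elovl3, Fabp2, Mup20, Osbpl3 and Serpina12), the chow MCOPPB livers lay below all 10 others (16 of all genes, 0.138%). The other 21 genes had neither pattern. The 66 genes were called from these same libraries, and none had overlapping MCOPPB groups, so part of each pattern was fixed by the calls. Of all genes tested, only 541 had MCOPPB groups that did not overlap in the lower direction and 536 in the higher. The shares over all genes are therefore not a like base, and an excess of these patterns was not tested. Genes in these sets that the selection rule did not pick were named after their values were seen.

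The 3 largest differences were in sex-biased genes (Mup20, Cyp2c40 and Cyp2c69). Mup20 (chromosome 4, 62050234 to 62054158, minus strand, GRCm38) encodes darcin, the male urinary pheromone protein. Its level was 6248, 8252, 6011, 7462 and 2190.0 in the chow MCOPPB livers and 85395, 50779 and 55459 in the DEN/HFD MCOPPB livers. The chow MCOPPB livers were also lower than the chow saline livers (122817, 112338 and 99355) and the DEN/HFD saline livers (281330.0, 75878, 196322 and 219316), so that the 5 drug-treated chow animals stood apart from the rest. Mup20 rose by 3.47 ± 0.42 (SE) between the MCOPPB groups (limma, adjusted p = 4.69e-04). The corresponding saline difference was 0.65 ± 0.44, and the difference between these diet effects, 2.82 ± 0.60, did not pass the test (adjusted p = 0.136). Mup20 belongs to a cluster of near-identical genes, so reads may be divided among them.

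Elovl3 (chromosome 19, 46131897 to 46135694, plus strand), an enzyme that lengthens very long chain fatty acids and is male-biased in liver, read 40.0, 44.7, 83.6, 29.4 and 18.3 in chow MCOPPB livers. In DEN/HFD MCOPPB livers it read 709, 383 and 266. The chow saline livers (865, 589 and 613) were the highest group on chow, and the DEN/HFD saline livers read 319.8, 326, 328 and 183. Elovl3 therefore rose with DEN/HFD under MCOPPB, by 2.18 ± 0.26 (adjusted p = 4.69e-04, limma), while its saline difference was -1.06 ± 0.27 (adjusted p = 0.179). The 2 diet effects differed by 3.24 ± 0.37 (adjusted p = 5.35e-04), and this call held in each of the 15 fits that left out 1 library. The other 34 of 36 tested male-biased genes did not pass the test, and the list's median difference was -0.02, with 17 positive and 19 negative. In the saline livers the same list had a median of -0.37, with 9 of 36 positive.

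Of 29 tested female-biased genes, 8 fell and 0 rose (Cyp2c40, Cyp2c69, Acot3, Sult3a1, Fmo2, Slc22a26, Cyp2b13 and Cyp2b9), with 21 differences negative and a list median of -0.59. Of all genes tested, 0.346% fell. Groups did not overlap for 12 of the 29 in the lower direction, beside 4.68% of all genes. In the saline livers the same list had a median of 0.16.

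Cyp2c40 (chromosome 19, 39767071 to 39812814, minus strand), a cytochrome P450 that oxidises arachidonic acid, was at 378, 1056, 1002, 1145 and 1643 in chow MCOPPB livers. It was at 38.1, 33.9 and 21.5 in DEN/HFD MCOPPB livers. Chow saline livers (118, 70.0 and 42.2) and DEN/HFD saline livers (15.9, 29.7, 13.7 and 62.2) were both far below the chow MCOPPB livers. Cyp2c40 fell by 3.38 ± 0.32 (adjusted p = 5.71e-05, limma), the smallest adjusted p of the comparison. The diet effects with and without the drug differed by -2.74 ± 0.46 (adjusted p = 0.0394).

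Cyp2c69, its neighbour on chromosome 19 (39842814 to 39886799, minus strand), had 171, 568, 437, 389 and 998 against 3.18, 15.96 and 15.1. It was at 38.8, 0 and 14.2 in chow saline livers and at 1.33, 3.79, 0 and 2.11 in DEN/HFD saline livers. It fell by 2.89 ± 0.35 (adjusted p = 4.69e-04, limma). Cyp2c40 and Cyp2c69 are close in sequence, so their reads may be shared, and both calls held in all 15 fits without 1 library.

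Cyp2b9 and Cyp2b13, neighbouring genes of chromosome 7 (26173411 to 26210661 and 26061497 to 26096197, plus strand), encode female-biased cytochromes P450 of the phenobarbital-responsive 2b family. They are shown because they moved together and have nearly the same promoter. The 250 bases before the RefSeq start (GRCm38.p6, plus strand, 5′ to 3′, chr7:26173159-26173408 for Cyp2b9 and chr7:26061245-26061494 for Cyp2b13) differ at 2 of 250 bases, an identity of 99.2%, and capitals mark these positions.
Cyp2b9: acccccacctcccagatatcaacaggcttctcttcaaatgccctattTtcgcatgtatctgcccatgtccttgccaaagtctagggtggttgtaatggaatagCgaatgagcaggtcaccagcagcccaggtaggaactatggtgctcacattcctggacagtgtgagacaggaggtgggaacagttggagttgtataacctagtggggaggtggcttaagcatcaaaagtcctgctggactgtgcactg
Cyp2b13: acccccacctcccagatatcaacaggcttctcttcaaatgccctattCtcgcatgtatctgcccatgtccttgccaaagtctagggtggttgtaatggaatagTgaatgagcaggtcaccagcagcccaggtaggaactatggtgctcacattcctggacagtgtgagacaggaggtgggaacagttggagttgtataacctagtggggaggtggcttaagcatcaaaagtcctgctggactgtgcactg
The genes themselves are also close relatives, so reads may be divided between them.

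Cyp2b9 was at 2847, 3009.6, 4167, 2115 and 4341 in chow MCOPPB livers and at 1249.6, 1309.7 and 1011 in DEN/HFD MCOPPB livers. In chow saline livers it was at 30.4, 0 and 18.4, and in DEN/HFD saline livers at 339, 447, 487 and 181. The order of the 4 groups was thus chow saline, DEN/HFD saline, DEN/HFD MCOPPB and chow MCOPPB, and no neighbouring groups overlapped. Cyp2b9 fell with DEN/HFD under MCOPPB, by 1.37 ± 0.29 (adjusted p = 0.0411, limma), and rose with it under saline, by 2.57 ± 0.31 (adjusted p = 0.00198). The difference between these effects was -3.93 ± 0.42 (adjusted p = 4.60e-04) and was called in all 15 fits without 1 library. The fall itself was lost in 10 of these fits, with an adjusted p of up to 0.233 without DEN/HFD MCOPPB 3.

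Cyp2b13 was at 207, 140.5, 276, 178 and 446 in chow MCOPPB livers and 68.5, 84.9 and 66.9 in DEN/HFD MCOPPB livers. It was at 0 in all 3 chow saline livers and at 15.9, 10.4, 25.9 and 13.7 in DEN/HFD saline livers, the same order of groups as for Cyp2b9. It fell by 1.08 ± 0.22 (adjusted p = 0.0289, limma), and the diet effects differed by -1.93 ± 0.32 (adjusted p = 0.0394). Without DEN/HFD MCOPPB 3 the adjusted p of the fall was 0.182, and the call was lost in 5 of 15 such fits.

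**Figure D1:**
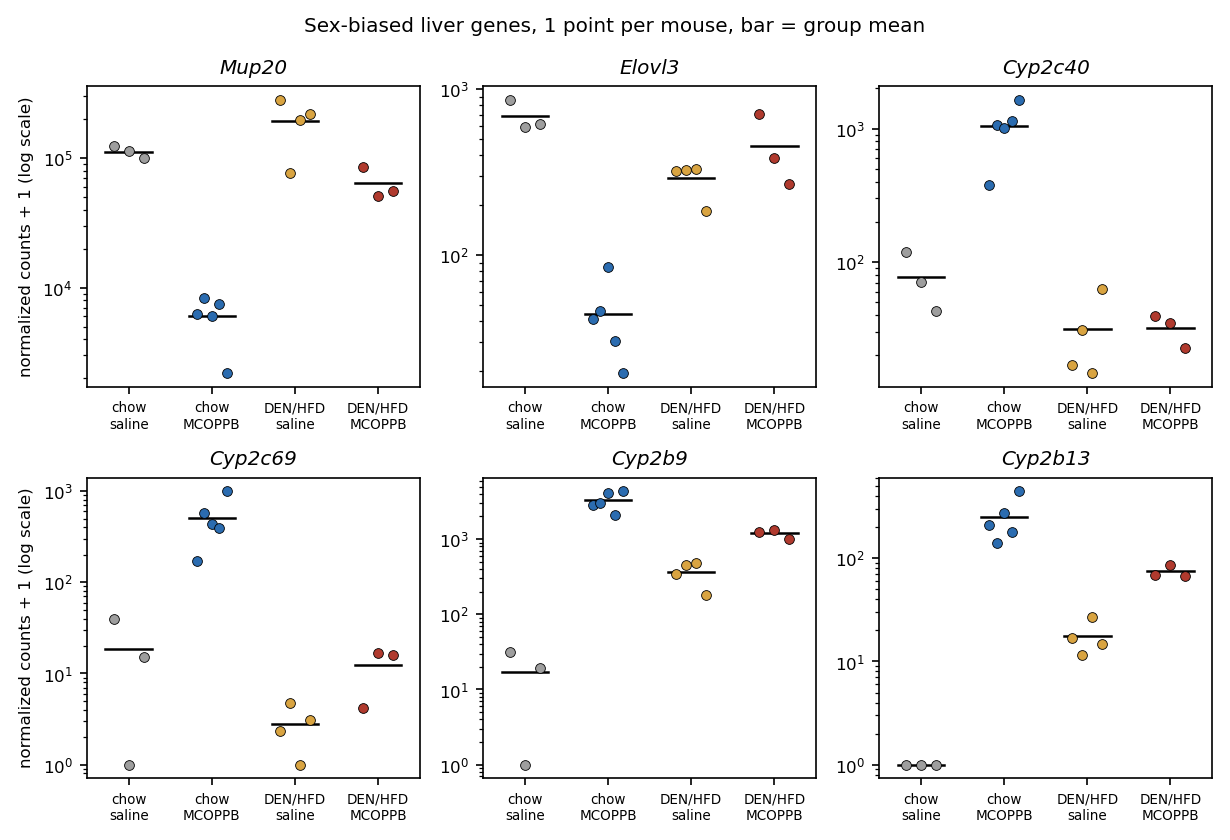
Levels of 6 sex-biased genes (normalized counts plus 1, log scale) in the 4 groups, with 1 point per mouse and a bar at each group mean. The 5 chow MCOPPB livers lie below all other libraries for Mup20 and Elovl3 and above all others for Cyp2c40, Cyp2c69, Cyp2b9 and Cyp2b13.

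Acot3, Sult3a1, Fmo2 and Slc22a26 were the other female-biased genes that fell. Acot3, a peroxisomal acyl-CoA thioesterase, was at 839, 1438, 572, 908 and 1921 in chow MCOPPB livers and 228, 229 and 106 in DEN/HFD MCOPPB livers, a fall of 2.11 ± 0.36 (adjusted p = 0.012, limma). Sult3a1, an amine sulfotransferase, was at 15.02 to 37.4 in chow MCOPPB livers, at 3.32, 0 and 0 in DEN/HFD MCOPPB livers and at 0 in chow saline livers. It fell by 1.00 ± 0.18 (adjusted p = 0.019). Fmo2, a flavin-containing monooxygenase, fell by 1.40 ± 0.26, and the organic anion transporter gene Slc22a26 by 1.62 ± 0.34. Sult2a7, a hydroxysteroid sulfotransferase on none of the lists and named after its values were seen, was at 119 to 155 against 14.4, 30.4 and 19.7, and fell by 1.30 ± 0.17 (adjusted p = 6.50e-04). Igfbp2, an insulin-like growth factor binding protein, was at 4032, 2980.4, 3378, 4017 and 2754 against 954, 1126 and 893. It fell by 1.70 ± 0.25 (adjusted p = 0.0028), the only call among 19 tested genes of growth hormone signalling. The share of all genes tested that fell was 0.346%.

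Of 32 tested CAR and PXR targets, 5 fell and 0 rose, and 23 differences were negative, with a median of -0.44. The 5 include Cyp2b9 and Cyp2b13, already counted as female-biased, and 0.346% of all genes tested fell. In 14 of the 32 targets the DEN/HFD MCOPPB livers lay wholly below the chow MCOPPB livers, as in 4.68% of all genes tested. In the saline livers the list's median was 0.16. Slco1a4 (chromosome 6, 141805440 to 141856199, minus strand), an organic anion transporter and textbook PXR target, was at 922, 1134, 784, 758 and 693 in chow MCOPPB livers and 355, 187 and 289.9 in DEN/HFD MCOPPB livers. Saline livers of both diets read 182 to 297, so that the chow MCOPPB livers were the high group. Slco1a4 fell by 1.40 ± 0.20 (adjusted p = 0.00183, limma).

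Por (chromosome 5, 135670033 to 135735326, plus strand), the reductase that passes electrons to all microsomal cytochromes P450, was at 4378, 5101, 3592, 3119 and 4291 in chow MCOPPB livers. It was at 1241, 969.8 and 976 in DEN/HFD MCOPPB livers, 1775, 1525 and 1569.7 in chow saline livers and 1199.6, 2006, 1751 and 4042 in DEN/HFD saline livers. The last value, of DEN/HFD saline 4, is the only one of the 10 other libraries within the chow MCOPPB range. Por fell by 1.85 ± 0.28 (adjusted p = 0.0028), and the difference from the saline diet effect, -2.17 ± 0.40, missed the threshold (adjusted p = 0.0531). Cyp2c54 fell by 2.81 ± 0.50 (adjusted p = 0.0152, limma), from 5361, 4777, 4084, 3553 and 1843 to 1333, 213 and 286. Alas1, the rate-limiting enzyme of haem synthesis, fell by 2.03 ± 0.41 (adjusted p = 0.0289), and without DEN/HFD MCOPPB 3 its adjusted p was 0.197.

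Of 22 tested circadian genes, 4 fell (among them Usp2, Per3 and Tef) and 0 rose, beside 0.346% of all genes tested that fell. Of the 22 differences, 16 were negative, with a median of -0.63, beside -0.01 in the saline livers. The time of day at which each liver was taken is not in the labels, and its part in these differences was not tested. Promoters of Per3 and Tef are printed because both genes fell and hold elements that clock factors are known to bind. The D-box TTATGTAA, bound by the PAR bZIP factors that include TEF, and the E-box CACGTG, bound by CLOCK and BMAL1, were searched on both strands of the 250 bases before each RefSeq start (GRCm38.p6) and are in capitals. Per3 lies at chr4:151044666-151044915 (minus strand) and has the D-box at bases -205 and -158. Tef lies at chr15:81802423-81802672 (plus strand) and has the E-box at -127.
Per3: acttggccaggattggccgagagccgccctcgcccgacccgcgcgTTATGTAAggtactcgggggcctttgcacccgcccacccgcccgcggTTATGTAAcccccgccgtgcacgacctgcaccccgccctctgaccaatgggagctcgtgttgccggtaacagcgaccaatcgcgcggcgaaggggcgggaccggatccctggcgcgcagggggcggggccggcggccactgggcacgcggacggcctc
Tef: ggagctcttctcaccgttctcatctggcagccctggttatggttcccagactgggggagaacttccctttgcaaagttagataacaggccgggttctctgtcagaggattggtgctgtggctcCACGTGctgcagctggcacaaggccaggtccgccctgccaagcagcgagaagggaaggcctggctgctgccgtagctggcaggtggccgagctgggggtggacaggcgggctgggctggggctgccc
These letters describe the windows only. The D-box is in 0.819% and the E-box in 6.02% of 32851 promoter windows of this length, and neither is in those of Usp2, Upp2 or Nampt.

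Usp2 (chromosome 9, 44067021 to 44095627, plus strand), a deubiquitinating enzyme with a strong daily rhythm in liver, was at 495, 476, 341, 774 and 647 in chow MCOPPB livers and 49.7, 50.0 and 66.3 in DEN/HFD MCOPPB livers. Chow saline livers read 185, 594 and 432, and DEN/HFD saline livers 352, 307, 294 and 579.8. Only the DEN/HFD MCOPPB livers stood apart, below all 12 others. Usp2 fell by 2.25 ± 0.28 (adjusted p = 5.29e-04, limma), and the saline difference was 0.00 ± 0.29. The difference between them was -2.25 ± 0.40 (adjusted p = 0.0432), which was called in 3 of 15 fits without 1 library and reached an adjusted p of 0.156 without DEN/HFD MCOPPB 3.

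Per3, a period protein of the clock's negative limb, was at 329, 188, 179, 180.2 and 358 in chow MCOPPB livers and 31.6, 3.83 and 60.9 in DEN/HFD MCOPPB livers, a fall of 1.77 ± 0.33 (adjusted p = 0.019, limma). DEN/HFD MCOPPB 2 was the lowest, and without it the adjusted p was 0.122. Tef, a PAR bZIP activator of clock output, was at 985, 818, 855, 952 and 1141 against 271, 248 and 392. It fell by 1.43 ± 0.26 (adjusted p = 0.0179), or 0.0976 without DEN/HFD MCOPPB 2. The 7 saline livers on either diet spanned 71.1 to 303 for Per3 and 456 to 1803 for Tef.

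**Figure D2:**
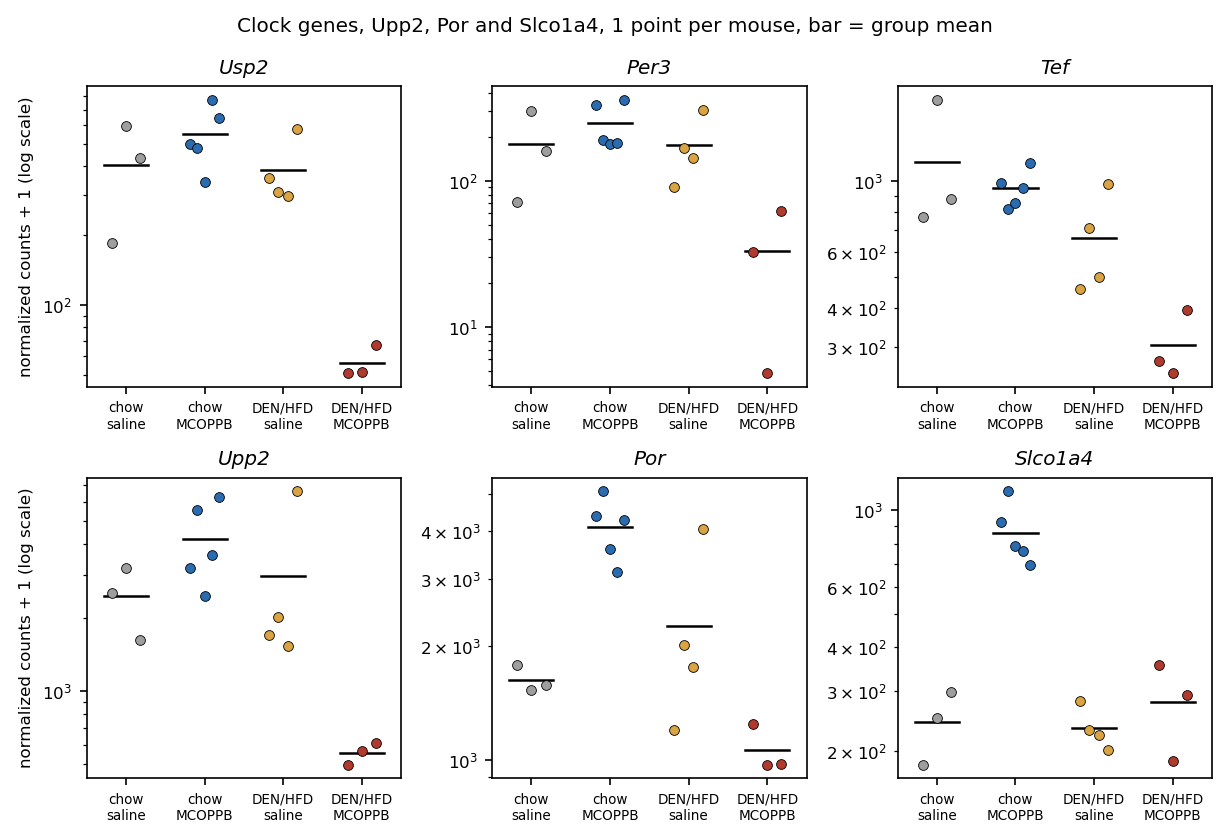
Levels of 3 clock genes (Usp2, Per3 and Tef) and of Upp2, Por and Slco1a4 (normalized counts plus 1, log scale) in the 4 groups, with 1 point per mouse and a bar at each group mean. The 3 DEN/HFD MCOPPB livers lie lowest for Usp2, Per3, Tef and Upp2, and the chow MCOPPB livers lie highest for Slco1a4.

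Several enzymes of small-molecule metabolism also fell. Upp2, a uridine phosphorylase, was at 3196, 5565, 2458, 3609.6 and 6290.2 in chow MCOPPB livers and 495, 563 and 606 in DEN/HFD MCOPPB livers, a fall of 2.67 ± 0.39 (adjusted p = 0.0028, limma). Inmt, an amine N-methyltransferase, was at 4202, 4357, 4076, 8084 and 5091 against 1562, 1122 and 1149, a fall of 1.91 ± 0.26 (adjusted p = 0.00165). Nampt, the rate-limiting enzyme of NAD salvage and named after its values were seen, was at 802, 621, 943, 517 and 602 against 321, 293 and 289. It fell by 1.00 ± 0.18 (adjusted p = 0.0153). All 7 saline livers lay between these groups, at 349 to 515. Dclre1a, a DNA crosslink repair nuclease, was at 341, 298, 191, 394 and 339.8 against 122, 103 and 59.1, and fell with an adjusted p of 0.0259. In saline livers it was lower on chow (56.4, 104 and 77.9) than on DEN/HFD (239, 180.1, 89.6 and 261) apart from an overlap of 1 library each. The diet effects on Dclre1a differed by -1.97 ± 0.34 (adjusted p = 0.0432). F7, coagulation factor VII, fell by 1.03 ± 0.22 (adjusted p = 0.0352) as the only call among 42 tested genes of complement and coagulation. Of these 42 genes, 33 had negative differences, and 0.346% of all genes tested fell.

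Among the genes that rose, several are known from liver tumours, cell division and the p53 response. Of 16 tested tumour and oncofetal genes, 2 rose (Gpc1 and Anxa2), beside 0.225% of all genes tested, and 12 were positive, with a median of 0.42. In the saline livers 13 of the 16 were positive, with a median of 0.68. Gpc1 (chromosome 1, 92831645 to 92860779, plus strand), a cell-surface heparan sulfate proteoglycan, was at 62.6, 61.7, 56.5, 70.6 and 35.5 in chow MCOPPB livers and 464, 413 and 432 in DEN/HFD MCOPPB livers. It was at 159, 53.2 and 84.2 in chow saline livers and at 564, 535, 728 and 261 in DEN/HFD saline livers, so that the diets separated with and without the drug. Gpc1 rose by 1.99 ± 0.24 under MCOPPB (adjusted p = 4.69e-04, limma) and by 1.77 ± 0.25 under saline (adjusted p = 0.0108). The difference of 0.22 ± 0.35 between these effects did not pass the test (adjusted p = 0.927).

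Anxa2 (chromosome 9, 69453620 to 69491795, plus strand), a calcium-dependent membrane-binding protein, was at 70.9, 145, 78.2, 112 and 143 against 562, 429.8 and 1166. In the DEN/HFD saline livers 3 of 4 were as high (976, 461 and 861) and DEN/HFD saline 4 was at 108. Anxa2 rose by 2.01 ± 0.43 (adjusted p = 0.038, limma), and the call was lost in 9 of 15 fits without 1 library, with an adjusted p of 0.257 without DEN/HFD MCOPPB 3.

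Cdkn1a (chromosome 17, 29090976 to 29100727, plus strand), the p53 target that encodes the cell-cycle inhibitor p21, was at 0, 15.1, 13.5, 13.4 and 9.92 in chow MCOPPB livers. It was at 67.7, 115 and 195 in DEN/HFD MCOPPB livers, at 12.6, 43.4 and 17.0 in chow saline livers and at 76.0, 32.8, 65.0 and 12.6 in DEN/HFD saline livers. The saline groups overlapped and the MCOPPB groups did not. Cdkn1a rose by 1.53 ± 0.27 (adjusted p = 0.0152, limma), and the call was lost in 2 of 15 fits, with an adjusted p of 0.163 without DEN/HFD MCOPPB 3. The difference between the diet effects did not pass the test (1.19 ± 0.39, adjusted p = 0.65). Cdkn1a was the only call among 23 tested p53 targets and among 26 tested senescence genes, beside 0.225% of all genes tested that rose. The p53 targets were positive in 21, with a median of 0.41, and the senescence genes in 18, with a median of 0.25. The saline medians of these lists were 0.30 and 0.30. Cdkn2a, which encodes the senescence marker p16, was below the level required for testing, at 0 to 8.02 in all 15 libraries. Oprl1, the receptor of MCOPPB, and Pnoc, the precursor of its natural ligand, were at 0 in all 15.

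Mki67, the proliferation marker Ki-67, was at 5.23, 24.1, 14.9, 12.8 and 12.7 in chow MCOPPB livers and 92.4, 77.5 and 84.2 in DEN/HFD MCOPPB livers, above all saline livers (0 to 49.2). It rose by 1.08 ± 0.23 (adjusted p = 0.037, limma), or with an adjusted p of 0.189 without DEN/HFD MCOPPB 3. In saline livers Mki67 differed by 0.75 ± 0.24 (adjusted p = 0.26). The difference of 0.33 ± 0.33 between these effects did not pass the test (adjusted p = 0.888). Mki67 was the only call among 25 tested cell cycle genes (16 positive, median 0.13), beside 0.225% of all genes tested that rose. Osbpl3, an oxysterol-binding protein relative, was at 14.5 to 23.4 against 107, 142 and 182, and rose by 1.35 ± 0.26 (adjusted p = 0.0253). Its saline difference was 1.27 ± 0.27 (adjusted p = 0.145).

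**Figure D3:**
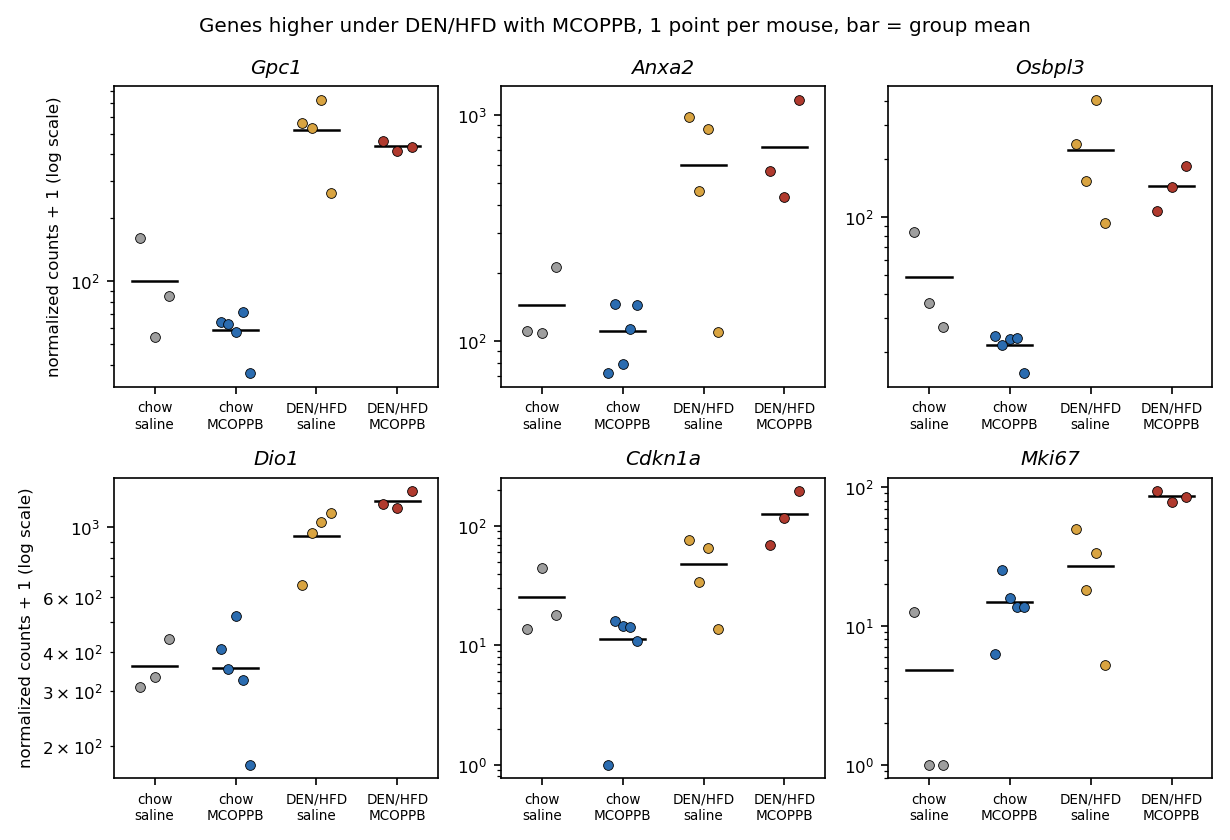
Levels of 6 genes that rose with DEN/HFD under MCOPPB (normalized counts plus 1, log scale) in the 4 groups, with 1 point per mouse and a bar at each group mean. The 3 DEN/HFD MCOPPB livers lie above the 5 chow MCOPPB livers for each gene, and DEN/HFD saline 4 lies near the chow livers for Anxa2 and Cdkn1a.

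Single genes of lipid handling rose, while the lists they belong to held few calls. Fabp2, a fatty acid-binding protein, was at 649.8, 1056, 1138, 1311 and 991 in chow MCOPPB livers and 2676, 2254 and 2599 in DEN/HFD MCOPPB livers, a rise of 1.25 ± 0.24 (adjusted p = 0.0257, limma). Fgf21, a fasting and stress hormone of hepatocytes, was at 5.26, 8.10, 7.90, 2.54 and 17.8 against 47.7, 64.6 and 84.3, a rise of 1.05 ± 0.21 (adjusted p = 0.0258). These were the 2 calls among 25 tested genes of PPARgamma and lipid uptake, of which 16 were positive. Beside them, 0.225% of all genes tested rose. Insig2, a brake on sterol synthesis, was at 534, 649.5, 881, 359 and 389.9 against 2371, 2043 and 2029, a rise of 1.84 ± 0.36 (adjusted p = 0.0253). Of 26 tested cholesterol synthesis genes, 21 were negative with a median of -0.41, and none passed the test. The adjusted p of each of these 3 rises was above 0.05 without DEN/HFD MCOPPB 3 (0.167, 0.195 and 0.163).

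The lipid droplet genes Cidec and Cidea missed the threshold. Cidec was at 0, 6.41, 8.36, 17.4 and 14.6 in chow MCOPPB livers and 367, 118 and 578 in DEN/HFD MCOPPB livers, with a difference of 2.55 ± 0.57 (adjusted p = 0.0513, limma). Cidea was listed at 0 in all 5 chow MCOPPB livers and was at 215, 29.4 and 464 in the DEN/HFD MCOPPB livers (adjusted p = 0.0619). In saline livers Cidec was at 45.5, 2.64 and 92.6 on chow and 466, 261, 864 and 20.1 on DEN/HFD. Cidea was there at 75.6, 0 and 10.9 on chow and 320, 219, 437 and 4.25 on DEN/HFD. Of 27 tested lipid droplet genes, 16 were positive with MCOPPB and 25 with saline. The list medians were 0.24 with MCOPPB and 0.26 in saline livers. Apoa4, an apolipoprotein that rises with hepatic fat, had a difference of 2.77 ± 0.67 and an adjusted p of 0.0714.

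Other rises were in hormone, stress and acute phase genes. Dio1, which activates thyroid hormone, was at 406, 352, 520.1, 324 and 174 against 1188, 1150.0 and 1302, a rise of 1.62 ± 0.23 (adjusted p = 0.00233, limma). Its saline difference was 1.19 ± 0.24 (adjusted p = 0.118). Atf5, a transcription factor of the mitochondrial stress response, was at 1812, 2046, 2186, 1528 and 2074 against 4219.7, 5366 and 4725, a rise of 1.27 ± 0.18 (adjusted p = 0.00233). Atf5 and Fgf21 were the 2 calls among 34 tested genes of the unfolded protein and ATF4 response (19 positive). Fgf21 was already counted with PPARgamma and lipid uptake, and 0.225% of all genes tested rose. Serpina12, the adipokine vaspin, was at 64.3 to 164 against 577, 348 and 998, a rise of 1.99 ± 0.40 (adjusted p = 0.0268), and was at 393 to 1619.5 in the saline livers of both diets. Cp, the copper carrier ceruloplasmin, rose by 0.86 ± 0.19 (adjusted p = 0.0462), as the only call among 36 tested acute phase genes, of which 25 were negative. Gm43302, a predicted gene, was listed at 0 in all 5 chow MCOPPB livers and was at 97.2, 106 and 68.1 in DEN/HFD MCOPPB livers. Chow saline livers read 51.3, 0 and 42.7 for it, and DEN/HFD saline livers 0, 0, 29.3 and 0. Its diet effects differed by 2.56 ± 0.44 (adjusted p = 0.0432, limma). Its rise of 1.90 ± 0.31 between the MCOPPB groups became 0.45 with the first RNA integrity value in the model.

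Marker lists of non-parenchymal cells held no called gene, while several had mostly positive differences. Of 38 tested stellate cell and matrix genes, 31 were positive with a median of 0.31, and in 11 the DEN/HFD MCOPPB livers lay wholly above the chow MCOPPB livers (4.63% of all genes did). Col1a1, the main fibrillar collagen, was at 29.1, 32.1, 46.4, 47.7 and 53.3 against 163, 122 and 401, a difference of 1.35 ± 0.42 (adjusted p = 0.174, limma). Pdgfrb, the stellate cell growth factor receptor, was at 28.9 to 54.0 against 97.2, 94.3 and 107 (0.68 ± 0.16, adjusted p = 0.0639). Its saline difference had the other sign, at -0.53 ± 0.17. The summed level of the matrix list was 10605 to 18167 in chow MCOPPB and 12680 to 16063 in DEN/HFD MCOPPB livers, and these ranges overlap.

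Of 33 tested genes of lipid-associated and recruited macrophages, 30 were positive (median 0.46, beside 0.52 in saline livers). All 9 tested MHC class II genes were positive (median 0.48, beside 1.03), and none was called; H2-Eb1 differed by 1.23 ± 0.31 (adjusted p = 0.0864, limma). Cd163, a resident macrophage scavenger receptor, was at 42.4, 71.1, 46.6, 111 and 32.7 against 0, 26.5 and 0 (adjusted p = 0.0778). Among 22 tested Kupffer cell genes, 15 were positive and 7, with Cd163, negative. Id3, of the same list, went the other way from Cd163, at 93.4 to 168 against 227, 400 and 339 (0.99 ± 0.26, adjusted p = 0.107, limma). Endothelial genes (27 tested, median -0.06) and cholangiocyte genes (15 tested, median 0.17) included no call. All 8 tested red blood cell genes were negative (median -0.79, beside 0.00 in saline livers), and their summed level was 9295 to 15414 in chow MCOPPB and 5317 to 6137 in DEN/HFD MCOPPB livers. Hbb-bs differed by -1.33 ± 0.45 (adjusted p = 0.221). The part of blood content in the other differences was not tested.

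NRF2 targets, which defend against oxidants, were positive in 34 of 38 tested (median 0.43, beside 0.33 in saline livers), with 0 calls and with 12 genes whose groups did not overlap in the higher direction (4.63% of all genes tested). Gstp1, a glutathione S-transferase, was at 2321, 2433, 2936, 4945 and 3337 against 6093, 11820.4 and 9057 (1.47 ± 0.35, adjusted p = 0.0632, limma). Chow saline livers read 6300.5, 17815.5 and 8034 for Gstp1, and DEN/HFD saline livers 13541, 8129, 10405 and 18956. The saline difference was 0.33 ± 0.36, and the chow MCOPPB livers were the low group. Genes of methyl group and amino acid metabolism were negative in 25 of 33, with a median of -0.41. Cps1, the entry enzyme of the urea cycle, differed by -1.31 ± 0.31 (adjusted p = 0.0593), and Nrg4, a liver-acting growth factor, by -0.96 ± 0.22 (adjusted p = 0.0513). Nuclear-encoded subunits of oxidative phosphorylation were positive in 60 of 76, with a median of 0.22, while cytosolic ribosomal proteins had a median of 0.03 and mitochondrially encoded genes 0.05.

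**Figure D4:**
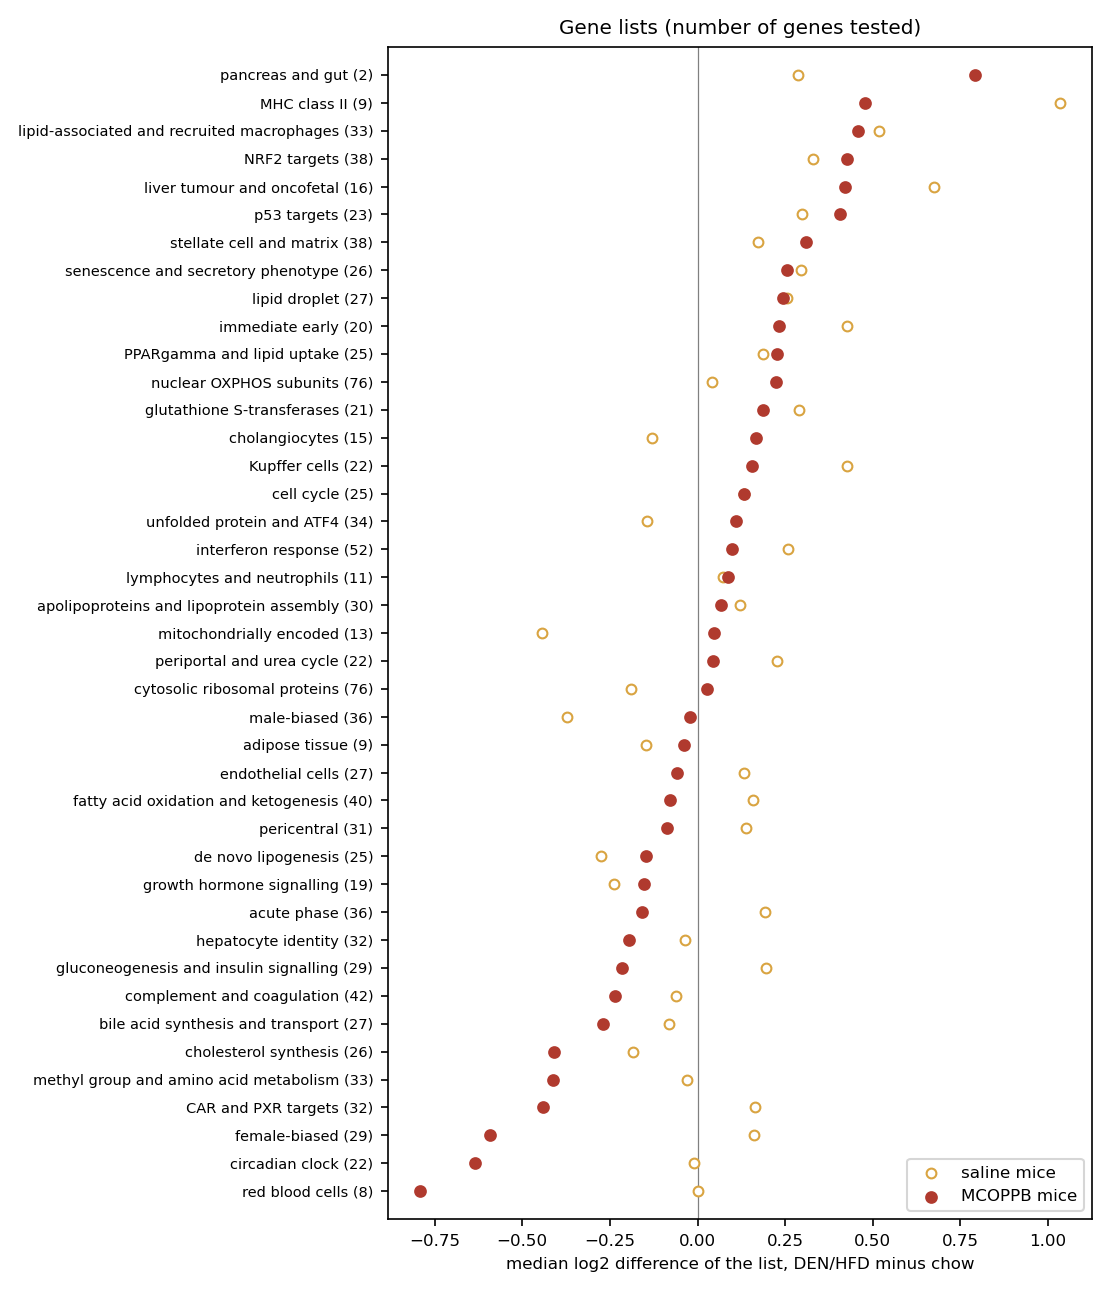
Median log2 difference (DEN/HFD minus chow) of each gene list in MCOPPB livers (filled red points) and in saline livers (open points), with the number of tested genes in brackets. Clock, female-biased, and CAR and PXR lists have negative medians in MCOPPB livers (-0.63, -0.59 and -0.44) and medians of -0.01, 0.16 and 0.16 in saline livers.

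The diet difference was then set beside that of the 7 saline livers, which share no library with the MCOPPB groups. In saline livers 6 genes passed the test (0.0519% of those tested), and 1268 had an unadjusted p under 0.05, beside 1427 in MCOPPB livers. Of the 66 genes called in MCOPPB livers, 47 had the same sign in saline livers (21 of 26 higher and 26 of 40 lower), beside 58.4% of all genes tested. Their median absolute difference was 1.30 in MCOPPB and 0.33 in saline livers, and the genes had been chosen by the first of these values. Among them, only Gpc1 and Cyp2b9 were called in both, Gpc1 with the same sign and Cyp2b9 with opposite signs. Across all 11568 genes, which are not independent replicates, the diet differences had a Pearson r of 0.298 and a Spearman rho of 0.275.

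The test of the difference itself, MCOPPB diet effect minus saline diet effect, called 8 genes (0.0692% of those tested), and 683 had an unadjusted p under 0.05. All 8 were among the 66: Cyp2b9, Elovl3, Cyp2b13, Cyp2c40, Gm43302, Dclre1a, Usp2 and Dtx4. Dtx4, a ubiquitin ligase of Notch signalling named after its values were seen, was at 49.3, 24.1, 50.8, 16.2 and 17.8 in chow MCOPPB livers and 110.0, 136 and 156 in DEN/HFD MCOPPB livers. Its saline livers read 68.9 to 81.7 on chow and 32.6 to 67.6 on DEN/HFD, and its diet effects differed by 1.47 ± 0.26 (adjusted p = 0.0432, limma). The calls of Cyp2b9 and Elovl3 held in all 15 fits without 1 library, and those of the other 6 genes in 3 or 4 of the 15, with the highest adjusted p, 0.156 to 0.189, without DEN/HFD MCOPPB 3. For the remaining 58 genes of the 66, a difference between the drug and saline diet effects was not shown.

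**Figure D5:**
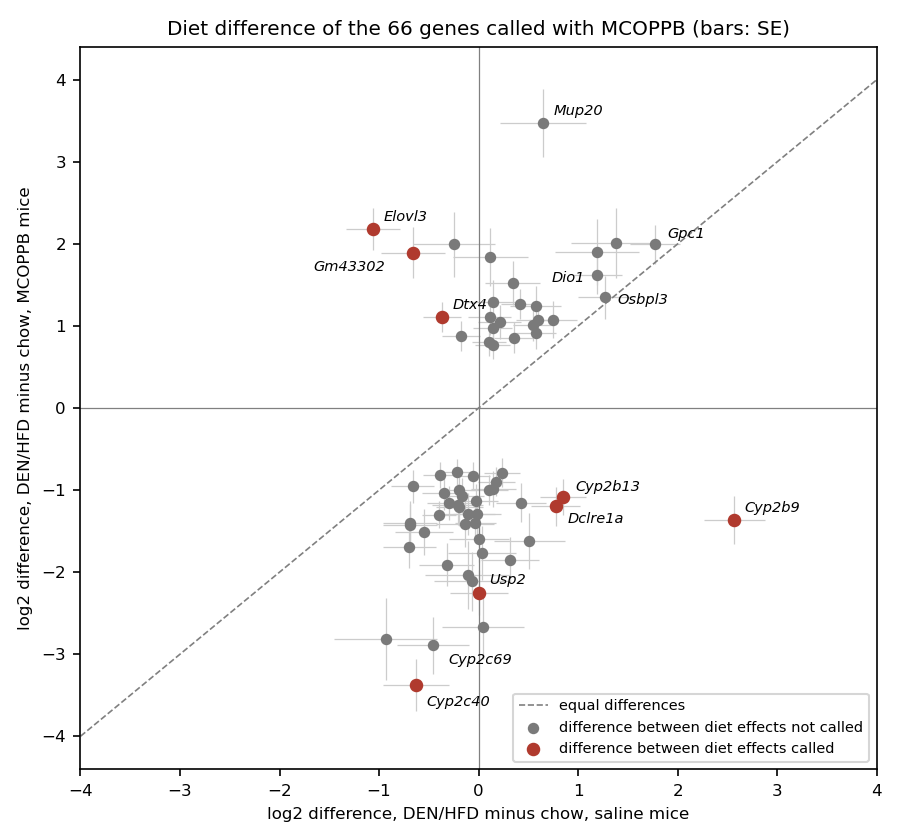
Diet differences (DEN/HFD minus chow, log2 scale) of the 66 genes called in MCOPPB livers, with the saline difference on the x axis, the MCOPPB difference on the y axis, and bars of 1 standard error. The dashed line marks equal differences, and the 8 red points are genes whose diet effects differed by the test, such as Cyp2b9 (2.57 and -1.37) and Elovl3 (-1.06 and 2.18).

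The number of calls depended on single animals. Leaving out 1 library at a time gave between 18 calls (without DEN/HFD MCOPPB 3) and 157 (without DEN/HFD saline 4). None of the 66 genes changed sign in any of the fits tried. Their groups did not overlap, so leaving out libraries could not have changed a sign. The 15 genes called in all 15 such fits were Atf5, Dio1, Elovl3, Gm43302, Gpc1 and Mup20, which rose, and Cyp2c40, Cyp2c69, Igfbp2, Inmt, Por, Slco1a4, Sult2a7, Upp2 and Usp2, which fell. An alternative chosen after seeing the data left out chow MCOPPB 4, chow saline 2 and DEN/HFD saline 4 together. It called 320 of 11568 genes, all 66 among them. In that fit the calls numbered 10 of 29 female-biased genes, 14 of 32 CAR and PXR targets and 8 of 22 clock genes. They numbered 6 of 38 NRF2 targets, 2 of 38 stellate cell and matrix genes and 1 of 8 red blood cell genes. In this order the list medians were -0.54, -0.45, -0.66, 0.51, 0.32 and -0.93. These counts stand beside the 320 calls of that fit, not beside the 66 of the main fit. For other named genes, the adjusted p without DEN/HFD MCOPPB 3 was 0.145 for Acot3, 0.163 for Sult3a1 and Cyp2c54, 0.189 for Osbpl3, 0.202 for Dclre1a, and 0.208 for Serpina12 and F7. For Cp it was 0.198 without DEN/HFD MCOPPB 2, and its call was lost in 11 of the 15 fits. Nampt was called in 12 of the 15 fits and lost without each DEN/HFD MCOPPB library in turn. Fmo2 was called in 12 and lost without chow MCOPPB 5, DEN/HFD MCOPPB 1 or DEN/HFD MCOPPB 3. Slc22a26 was called in 10 of the 15 fits and lost without chow MCOPPB 3, 4 or 5 or DEN/HFD MCOPPB 1 or 3, and was called in 6 of 12 other alternatives. Dtx4 was called in 14 and lost without DEN/HFD MCOPPB 3. With the first RNA integrity value in the model, 0 genes were called by limma, and 1559 had an unadjusted p under 0.05. In that fit all 35 called genes chosen by the selection rule kept their sign, at a median of 0.861 times their difference (0.235 to 1.55).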

How the data were processed

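Per the labels' protocols, directional libraries of liver RNA were read as single ends. Trimmomatic, STAR 2.7.0e, HTSeq and DESeq2 with GRCm38 (mm10) are named in the submitters' processing notes, without roles or settings. The deposited values are the authors' variance-stabilised log2 levels for 54281 genes in 15 libraries. Their lowest value, 5.49, stands for 0 reads. Levels were obtained by inverting this transformation to normalized counts. Whole reads were not recovered (15.2% to 45.2% of values under 20 reads were within 0.01 of a whole read), so no count test was run, depths are estimates, and intervals for counting error were not computed.

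Genes that exceeded the lowest value by 1 or more (log2) in 3 or more libraries (22.5 normalized counts) were tested with limma 3.58.1 (R 4.3.3): 4 group means, all 15 libraries, eBayes with trend, 11 residual degrees of freedom, two-sided tests, Benjamini-Hochberg adjustment over 11568 genes, threshold 0.05. The procedure was tested on simulated data. Named genes comprise, among called genes whose groups did not overlap, the 10 that rose most and the 10 that fell most, up to 4 called members or otherwise 2 members per list, the 6 smallest p for the difference between diet effects, and Oprl1, Pnoc, Cdkn1a and Cdkn2a. Members and lists were chosen with earlier results of these data known. Positions are from GENCODE M21 and promoters from RefSeq GRCm38.p6. Some genes that the rule selects are not reported here. Alternatives covered filters, normalization, trend, weights, samples fitted, RNA integrity, replicate numbers and left-out libraries.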

Additional observations from a re-analysis of the deposited data

Results flagged for a closer look

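Of 158 groups of 4 or 5 libraries examined over the named genes and library measures, 15 held 1 library whose gap to the nearest other was large for the group's range (Dixon's 95% criterion). In the chow MCOPPB group these were Mup20 at 2190.0, Osbpl3 at 14.5 and Jund at 651 in replicate 5, Cdkn1a at 0 and Ighm at 149.5 in replicate 1, Apom at 536 in replicate 4, and the share of counts from mitochondrial genes, 31.0%, in replicate 4. In the DEN/HFD saline group they were Elovl3 at 183, Inmt at 7118 and Cd68 at 45.0 in replicate 4, Sult3a1 at 3.95, Rplp0 at 1242 and mt-Co1 at 245482 in replicate 2, and Id3 at 135 and Gm43302 at 29.3 in replicate 3. A gene at 0 in all but 1 library of a group is flagged at any level, as Sult3a1 and Gm43302 were here. The groups also share libraries, so the 15 flags cannot be set against the 1 in 20 groups of the criterion.

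The diet effect differed between MCOPPB and saline livers, by the test of that difference in limma, for 8 genes. The MCOPPB minus saline diet effect was -3.93 for Cyp2b9, 3.24 for Elovl3, -1.93 for Cyp2b13, -2.74 for Cyp2c40, 2.56 for Gm43302, -1.97 for Dclre1a, 1.47 for Dtx4 and -2.25 for Usp2.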

How the results depend on the processing

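The 66 calls became 135 with only the 2 MCOPPB groups fitted, 285 with array weights, 0 with the first RNA integrity value as a covariate and 16 with a replicate block (14 of them among the 66). The 2 alternatives chosen after seeing the data gave 34 calls (second RNA integrity value) and 320 (without chow MCOPPB 4, chow saline 2 and DEN/HFD saline 4). Leaving out each library gave 18 to 157. Without a filter, with a stricter filter, without a trend, with quantile or centred values and on a log2(count + 1) scale the count was 45, 78, 72, 74, 69 and 69. The 8 differing diet effects became 2 without a filter, 4 on the log2(count + 1) scale, 3 with the first and 2 with the second RNA integrity value, 2 with a replicate block, and 2 to 12 without 1 library. Where the construction does not show it, the cause was not tested.

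Replicate numbers did not pair the libraries: the 3 MCOPPB pairs of equal number had residual correlations of -0.145 to 0.0756. No direction of a named gene that passed the test reversed. The groups of these genes did not overlap, so fits without single libraries could not have reversed one. The medians of the female-biased (-0.88 to -0.43), clock (-0.83 to -0.39), CAR and PXR (-0.75 to -0.39), NRF2 (0.30 to 0.58), matrix (0.04 to 0.60) and red blood cell (-1.93 to -0.69) lists kept their sign in all alternatives, and that of the male-biased list did not (0.11 with the first RNA integrity value). With 3 DEN/HFD MCOPPB livers and low depth for weak genes, differences that missed the threshold are not shown to be absent.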
